A study of Homo sapiens with 42 samples.

Results

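The coatomer is the coat of the vesicles that carry proteins from the Golgi apparatus back to the endoplasmic reticulum (ER). The 9 genes described here encode its subunits: COPA (alpha), COPB1 (beta), COPB2 (beta prime), COPE (epsilon), ARCN1 (delta), and 2 pairs of paralogues, COPG1 and COPG2 (gamma) and COPZ1 and COPZ2 (zeta). They were chosen by name as the complete set of coatomer genes, and they are 9 of the 28266 gene symbols in the count table. All 9 passed the filter on low counts in every fit.

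The data were 42 poly(A) RNA-seq libraries in 12 groups, all from human fetal lung fibroblasts. IMR90 is an established fibroblast line, and IMR90 ER:RAS is a pooled population of it infected with a retrovirus for an oestrogen receptor fusion of oncogenic HRAS, which 4-hydroxytamoxifen (4OHT) activates to give oncogene-induced senescence (OIS). ER:RAS cells received DMSO or 4OHT at 100 nM (18 libraries, 3 per group), and IMR90 cells received DMSO or, for 24 h, bleomycin at 50 µg/ml, a DNA-damaging drug that also leads to senescence (24 libraries, 4 per group). Cells of every group, controls included, carried a doxycycline-inducible shRNA vector and were grown for 7 days. Doxycycline at 1 µg/ml was then added for 72 h to induce either of 2 shRNAs targeting COPB2 or the control, so that RNA was taken at day 10. The sample titles call this control shRNA control, and the names of its count columns read shEV. It is called control shRNA here, and what it expresses was not tested. The study describes replicates of this experiment as independent experiments, the labels do not say whether they were separate cultures, and p-values measure the spread between these libraries.

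Coatomer is recruited to Golgi membranes as a whole by the GTPase ARF1. Alpha, beta prime and epsilon form the outer, cage-like layer, and beta, delta, gamma and zeta form the inner layer, which resembles the adaptors of clathrin coats. A complex holds a single gamma and a single zeta subunit, so the paralogues are alternatives to each other. The study knocked down COPB2 with siRNAs in ER:RAS cells. It reported a dispersed Golgi and an active ER stress response in OIS cells, but not in non-senescent cells.

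Both shRNAs are shown with their target sites because they set which subunit was depleted and whether another subunit shares the sequence. The guide strands, written 5′ to 3′ with the seed (bases 2 to 8) in capitals, and the sites in COPB2, written on the strand of the transcript with the seed match in capitals, were as follows.
COPB2 shRNA 1 guide: tTAAATATctttacaatgctgt
COPB2 shRNA 1 site: acagcattgtaaagATATTTAa
COPB2 shRNA 2 guide: tAATTGAAcactctaatctgca
COPB2 shRNA 2 site: tgcagattagagtgTTCAATTa
The site of shRNA 1 lay in coding exon 11 of 22 of COPB2 (GRCh37, chr3:139088345-139088366, minus strand) and that of shRNA 2 in coding exon 4 of 22 (chr3:139097987-139098008, minus strand). All 22 bases of each guide matched COPB2. The longest complementary run in the COPB1 transcript was 8 bases for shRNA 1 and 7 for shRNA 2, with 0 seed matches for either. Among the other subunits, seed matches of shRNA 1 were found once in COPA, 2 times in ARCN1 and 2 times in COPZ1, and shRNA 2 had none. Of 20176 protein-coding transcripts, 29.8% held the seed match of shRNA 1 and 17.9% that of shRNA 2.

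The zeta paralogues carry a microRNA gene each within an intron, on the same strand, and these microRNAs share their seed (capitals), as the RefSeq sequences on GRCh38.p14 show.
hsa-miR-148b-3p, in COPZ1: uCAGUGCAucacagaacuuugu
hsa-miR-152-3p, in COPZ2: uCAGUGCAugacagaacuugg
A poly(A) library does not measure mature microRNAs. The table's rows for these microRNA genes, MIR148B and MIR152, held at most 1 and 2 counts in any library.

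Total counts ran from 13148194 to 20312816 in the ER:RAS libraries and from 15580424 to 23597310 in the IMR90 libraries. HRAS had 47753 to 75170 counts in ER:RAS and 461 to 2656 in IMR90 libraries, and ESR1 had 21136 to 39952 and 0 to 11, so the genes of both parts of the fusion separated the lines as labelled. All 9 fibroblast markers were present in every library (COL1A1 at 935 CPM (counts scaled by library size) or more, LUM at 3.37 or more), and epithelial, endothelial and leukocyte markers reached at most 3.10 CPM except CD68, at 12.1 to 120.3, which fibroblasts also express. In several subunits 3 libraries stood apart from their groups. ER:RAS 4OHT control replicate 1 had the lowest scaling factor (0.611), the highest COPE (1067 CPM) and the lowest COPB1 (126), and IMR90 bleomycin COPB2 shRNA 2 replicate 2 had the highest COPZ2 of all 42 libraries (204 CPM) with the lowest COPA (357) and ARCN1 (235) of its group. IMR90 DMSO control replicate 1 was the highest of its group in COPA (599 CPM), COPE (331), COPG1 (424) and COPZ1 (264).

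Levels are given as CPM over library sizes scaled by TMM, which do not account for gene length. COPA, the largest subunit, ranged from 339 to 617 CPM over the 42 libraries, COPG1 from 254 to 542, ARCN1 from 230 to 595, COPB1 from 126 to 554, COPE from 175 to 1067 and COPZ1 from 146 to 453. COPG2 (28.5 to 81.7) and COPZ2 (22.4 to 204) were the low members. COPB2 spanned 33.9 to 620.4, since it was the shRNA target.

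Per kilobase of the canonical transcript, a length chosen after seeing the data, COPE had the highest level in all 4 control-shRNA groups, at 305 ± 88.2 CPM per kb (SD, n = 3) in ER:RAS DMSO, 592 ± 325 (n = 3) in ER:RAS 4OHT, 197 ± 64.5 (n = 4) in IMR90 DMSO and 231 ± 49.4 (n = 4) in IMR90 bleomycin. In each group its libraries lay above all those of the next subunit. Per kilobase of the union of all exons, ARCN1 (93.1) was above COPE (91.0) in IMR90 bleomycin. The next 6 followed in an order that differed between groups, from 178 (COPZ1) to 66.4 (COPB1) in ER:RAS 4OHT and from 138 (COPB2) to 87.2 (COPB1) in IMR90 bleomycin, and each overlapped its neighbour in that order. COPG2 and COPZ2 were left out of it because their gene models on GRCh37 are incomplete. No test was made of levels between genes, and these levels were not corrected for GC content. A gene on the same strand (ENSG00000268193) shares 264 bases of exon with COPE, and its part in the COPE level was not tested.

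**Figure D1:**
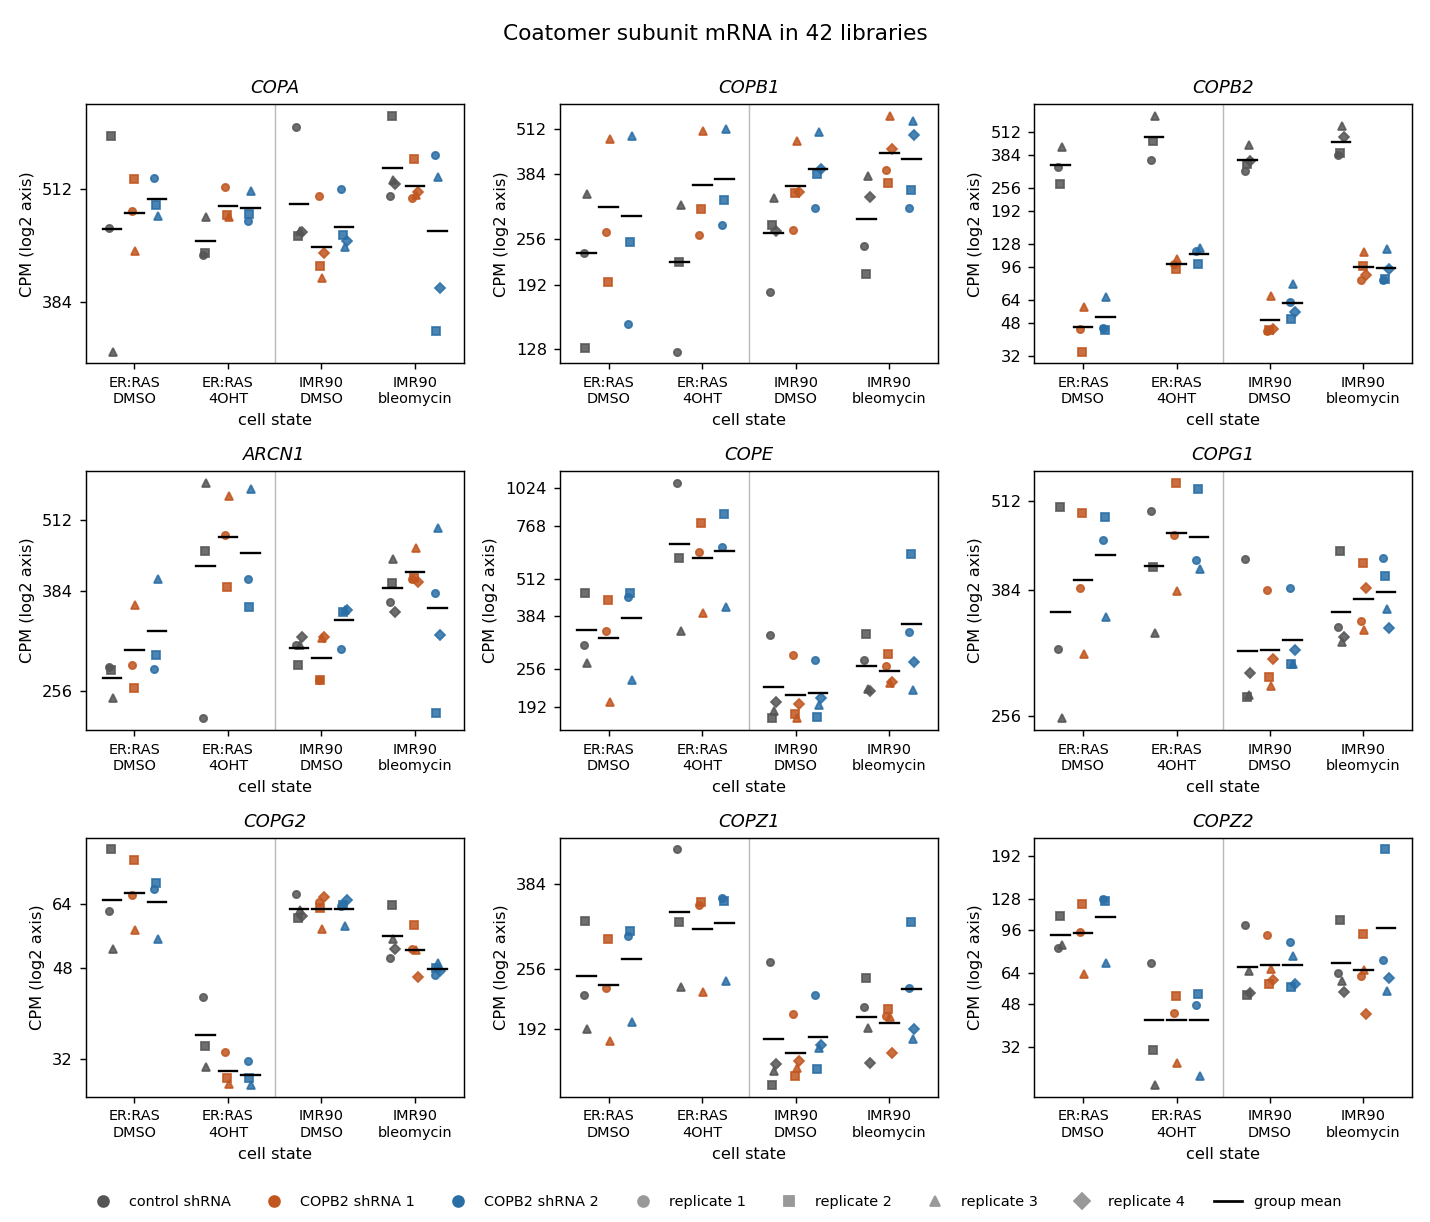
Level of each of the 9 subunits in every library, as CPM on a log2 axis, by group of cell line, treatment and shRNA, with a point per library. COPB2 drops in every COPB2 shRNA group, COPG2 and COPZ2 are lower in ER:RAS cells given 4OHT than in those given DMSO, and the libraries of a group spread most for COPB1, COPE and COPZ2.

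How far the libraries of a group lay apart differed between subunits. The within-group SD on the log2 scale was highest for COPB1 in ER:RAS cells, at 0.65, with COPE at 0.58 and COPZ2 at 0.55, and it was 0.18 for COPA and 0.21 for COPG2. In IMR90 cells COPZ2 (0.50), COPE (0.38) and COPB1 (0.34) spread most and COPG2 (0.10) least. COPB1 has the lowest GC content of the members (39.7% of its canonical transcript) and COPE the highest (62.9%), with COPZ2 at 55.6%. When each library's trend with GC content and transcript length was removed, the SD of COPB1 became 0.12 in ER:RAS and 0.094 in IMR90, that of COPE 0.073 and 0.075, and that of COPZ2 0.099 and 0.26. Those of COPG2 (0.35 and 0.18) and COPA (0.25 and 0.18) became larger or stayed alike. For COPG2 and COPZ2 the correction took GC content and length from the incomplete gene models. The trend was fitted to each library's deviation from the mean over all libraries of its line, all treatments and shRNAs included. A response to treatment or shRNA that follows GC content or length would therefore be removed too. This corrected fit is given below for the senescence comparisons with the control shRNA and for COPB1 with both COPB2 shRNAs. It also changed calls in some comparisons within or of a single COPB2 shRNA, which are given as counted.

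The first comparison was OIS against DMSO in ER:RAS cells with the control shRNA. Of the 9 subunits, 2 fell, COPG2 and COPZ2, and none rose. Of the 14297 genes tested, 20.2% were called lower and 15.5% higher (edgeR quasi-likelihood test, Benjamini-Hochberg adjusted p under 0.05). The 2 lower calls among 9 subunits are close to the share over all genes. The median log2 fold change was 0.12 over the subunits and -0.079 over all genes. In bulk RNA, fewer cells of a type and less RNA per cell cannot be told apart.

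COPG2 is the gamma paralogue that can take the place of COPG1 in the complex (GRCh37, chr7:130146079-130353588, minus strand). With the control shRNA it had 61.9, 81.7 and 52.3 CPM in the DMSO libraries and 42.3, 33.97 and 30.9 in the 4OHT libraries. Every 4OHT library lay below every DMSO library, as was the case for 20.6% of all genes. The log2 fold change was -0.96 (SE 0.18, adjusted p = 0.000504).

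The libraries with COPB2 shRNAs gave the same comparison in other samples. With shRNA 1, COPG2 had 66.6, 78.0 and 56.9 CPM under DMSO and 33.04, 29.4 and 28.6 under 4OHT (log2 fold change -1.22, SE 0.18, edgeR adjusted p = 6.28e-05). With shRNA 2, it had 68.4, 70.3 and 54.8 and 31.7, 29.4 and 28.5 (log2 fold change -1.18, SE 0.18, adjusted p = 8.75e-05). The 9 libraries given 4OHT, at 28.5 to 42.3 CPM, were all below the 9 given DMSO, at 52.3 to 81.7.

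COPG2 shares 228 bases of exon with MEST, an imprinted gene on the opposite strand. MEST stood at a mean of 171 CPM in ER:RAS DMSO and 3.50 in ER:RAS 4OHT with the control shRNA, and at 181 and 141 CPM in IMR90 DMSO and bleomycin. The libraries were directional, but the strand setting of the counting is not given in the sources used here, and the part of MEST reads in the COPG2 difference was not tested.

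COPZ2 encodes the zeta paralogue that can stand in for COPZ1 (chr17:46103533-46115392, minus strand). It had 80.6, 109 and 83.5 CPM under DMSO and 70.5, 30.9 and 22.4 under 4OHT with the control shRNA, without overlap, although replicate 1 of the 4OHT group came close to the DMSO libraries. The log2 fold change was -1.26 (SE 0.38, edgeR adjusted p = 0.0175). With COPB2 shRNA 1, levels were 94.2, 123 and 63.1 under DMSO and 44.1, 51.5 and 27.5 under 4OHT (-1.27, SE 0.38, adjusted p = 0.0161), and with shRNA 2 they were 128, 126 and 70.4 and 47.2, 52.3 and 24.4 (-1.47, SE 0.38, adjusted p = 0.00691). Neither comparison had overlapping groups in COPG2 or COPZ2, as was the case for 24.6% and 24.5% of genes in the lower direction, and 21.5% and 22% were called lower.

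The COPZ2 call with the control shRNA depended on the libraries. Without ER:RAS 4OHT control replicate 1 it was -1.81 (edgeR adjusted p = 0.00182), but without 4OHT control replicate 2 it was -1.03 (0.112), without 4OHT control replicate 3 -0.91 (0.101) and without DMSO control replicate 2 -1.08 (0.0782). COPG2 kept its call without any 1 of the 6 libraries, at -1.04 to -0.75 (adjusted p = 0.000856 to 0.00932). In a fit of these 6 libraries alone, neither gene passed, with COPG2 at -0.95 (adjusted p = 0.0693) and COPZ2 at -1.24 (0.0747), and with the size factors of DESeq2 COPZ2 stood at -1.12 (0.0536). Over all alternatives the adjusted p ran from 1.31e-05 to 0.0693 for COPG2 and from 2.73e-09 to 0.112 for COPZ2.

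The main paralogues did not pass the test. COPG1 had 318, 502 and 254 CPM under DMSO and 495, 414 and 335 under 4OHT (log2 fold change 0.12, SE 0.22, edgeR adjusted p = 0.726). COPZ1 had 225, 322 and 192 and 453, 320.3 and 235 (0.35, SE 0.25, adjusted p = 0.322). Both pairs of groups overlapped, and the intervals, -0.36 to 0.60 for COPG1 and -0.20 to 0.90 for COPZ1, leave room for a change either way. Without 4OHT control replicate 1 COPZ1 was at 0.14 (adjusted p = 0.741).

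Of the other subunits, COPE, which stabilizes alpha in the outer coat, had 308, 458 and 269 CPM under DMSO and 1067, 599.9 and 342 under 4OHT, a log2 difference of 0.85 (SE 0.39, edgeR adjusted p = 0.104). ARCN1, the delta subunit, had 283, 279 and 249.7 and 229.5, 451 and 595, a difference of 0.58 (SE 0.33, adjusted p = 0.203). In both genes 4OHT replicate 1 was far from its partners, highest in COPE and lowest in ARCN1. Without that library COPE was at 0.42 (adjusted p = 0.4659) and ARCN1 at 0.92 (0.0202), while without 4OHT replicate 3 COPE was at 1.21 (0.0284) and ARCN1 at 0.27 (0.540). Over the other alternatives the adjusted p ran from 4.85e-06 to 0.206 for COPE and from 0.000714 to 0.334 for ARCN1. COPB2 (0.40, SE 0.29), COPA (-0.13, SE 0.17) and COPB1 (-0.18, SE 0.53) did not pass either, and without 4OHT replicate 1 they were at 0.62, -0.046 and 0.15.

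In the COPB2 shRNA libraries COPE was at 0.80 (edgeR adjusted p = 0.120) with shRNA 1 and 0.67 (0.1996) with shRNA 2, and ARCN1 at 0.58 (0.192) and 0.39 (0.400). Same-numbered libraries of each COPB2 shRNA deviated together between treatments, with correlations of 0.471 to 0.791 for shRNA 1 and 0.534 to 0.798 for shRNA 2. Those with the control shRNA did not, with correlations of -0.614 to 0.588, so the number did not pair them between treatments. With the replicate number as 1 block over all ER:RAS libraries, controls included, COPE rose by 0.82 (edgeR adjusted p = 0.00429) and 0.67 (0.0142). ARCN1 rose by 0.59 with shRNA 1 (edgeR adjusted p = 0.0444), and 23.4% of genes were called higher for either shRNA.

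After the correction for GC content and length, 6 of the 9 subunits were called in OIS, where 28.7% of all genes were called higher and 27% lower. COPB2 (log2 fold change 0.63, SE 0.087), ARCN1 (0.72, SE 0.16), COPE (0.58, SE 0.085) and COPG1 (0.30, SE 0.12) were higher, with adjusted p-values from 1.55e-05 to 0.0410 in edgeR. COPG2 (-0.89, SE 0.27, adjusted p = 0.00962) and COPZ2 (-1.52, SE 0.10, adjusted p = 4.43e-09) were lower. The minor paralogues COPG2 and COPZ2 were thus lower in both fits, and the 4 higher calls came with the correction.

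**Figure D2:**
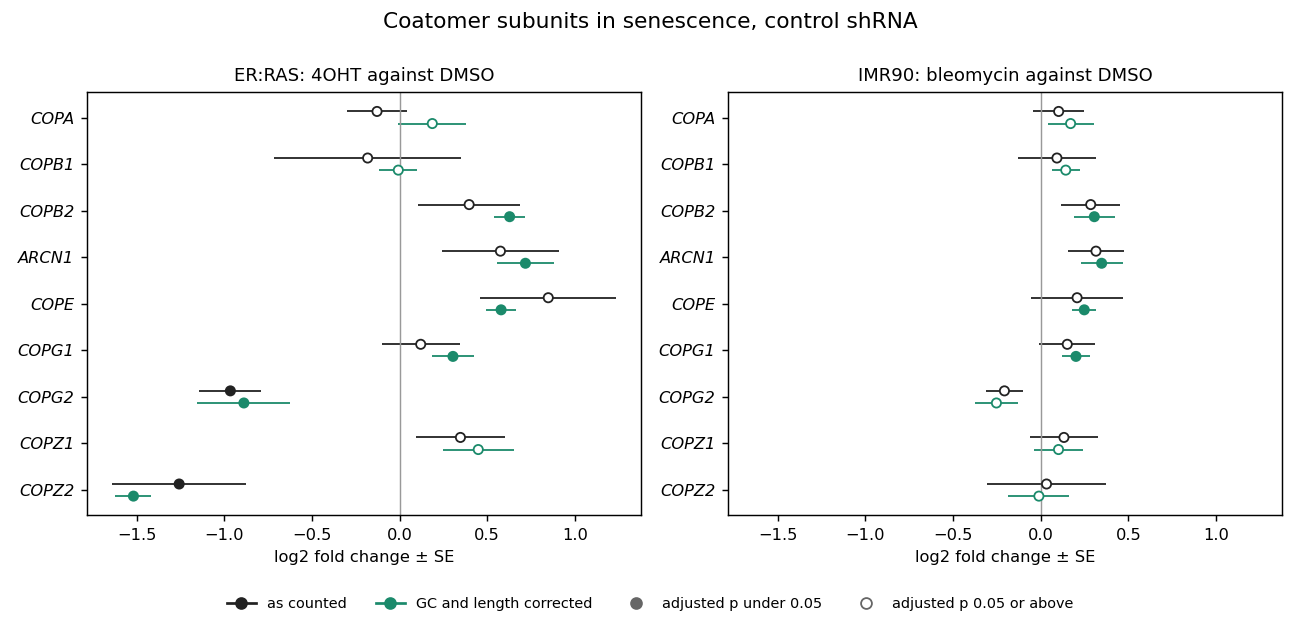
Log2 fold change of each subunit in OIS (ER:RAS, 4OHT against DMSO) and after bleomycin (IMR90, bleomycin against DMSO), with the control shRNA, as counted and after correction for GC content and length. Points are edgeR estimates and bars their SE. COPG2 and COPZ2 lie below 0 in OIS in both fits, and no subunit is that far below 0 after bleomycin.

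The balance between paralogues was followed within each library as the log2 ratio of both read counts, each with 0.5 added, which cancels the library's scaling. With the control shRNA, log2 COPG1/COPG2 was 2.36, 2.62 and 2.28 in ER:RAS DMSO and 3.55, 3.61 and 3.44 in ER:RAS 4OHT. Log2 COPZ1/COPZ2 was 1.48, 1.57 and 1.20 and 2.68, 3.37 and 3.39. The 4OHT libraries lay above the DMSO libraries in both ratios.

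With 3 libraries against 3, the exact two-sided permutation test cannot go below p = 0.1, and both ratios reached that value (adjusted p = 0.133 over the 8 ratio tests). Permuting treatment within each of the 3 shRNAs, with 9 libraries against 9, gave a difference of 1.22 in log2 COPG1/COPG2, a 2.33-fold shift, and 1.65 in log2 COPZ1/COPZ2, a 3.15-fold shift, each with p = 0.00025, the smallest such permutations can give (adjusted p = 0.000667). That test takes the 9 libraries as independent, although same-numbered libraries with COPB2 shRNAs deviated together. With the 3 libraries of a number kept together, 3 sets against 3 gave p = 0.1 for both ratios, the smallest such a test can give (exact permutation, adjusted p = 0.133). In all 3 shRNAs neither ratio overlapped between treatments. A ratio shows that the paralogues changed unequally, not which of them changed.

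**Figure D3:**
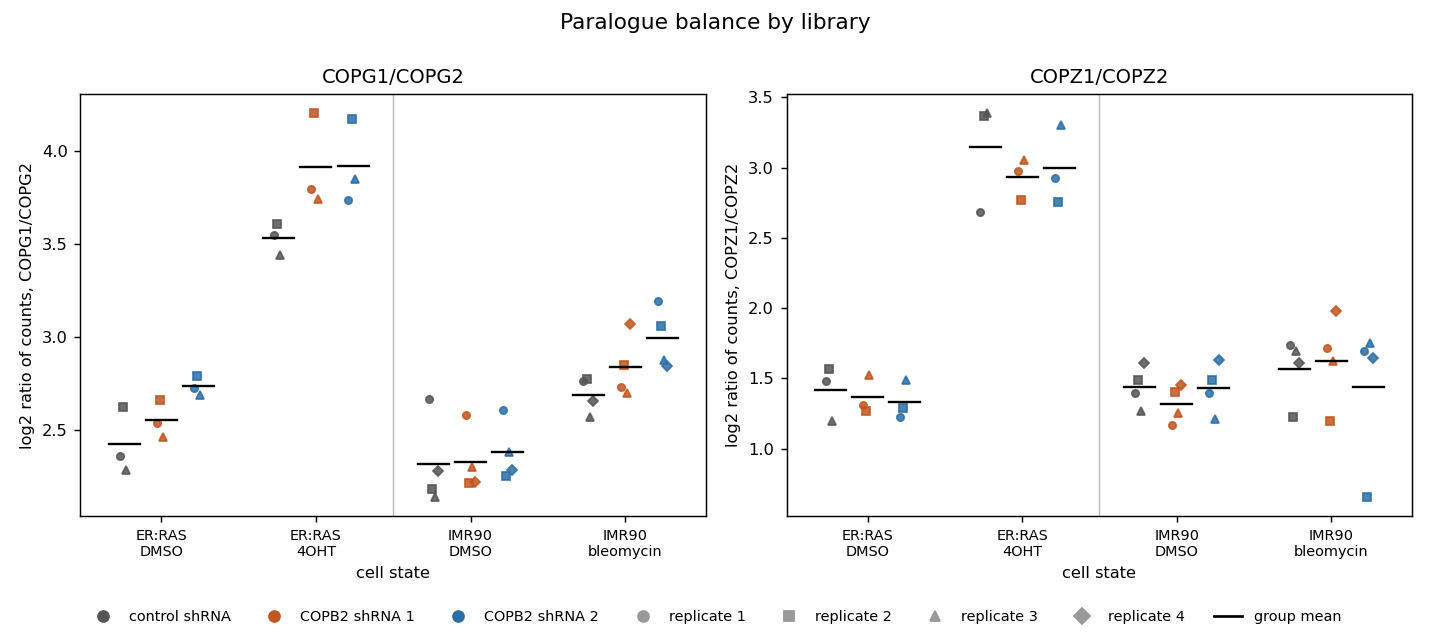
Log2 ratio of COPG1 to COPG2 and of COPZ1 to COPZ2 in every library, by group. In ER:RAS cells both ratios are higher under 4OHT than under DMSO in all 3 shRNAs, in IMR90 cells COPG1/COPG2 moves by less, and a single bleomycin library sits at 0.65 in COPZ1/COPZ2.

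In IMR90 cells the same ratios moved less. With the control shRNA, log2 COPG1/COPG2 was 2.66, 2.18, 2.14 and 2.28 under DMSO and 2.76, 2.77, 2.57 and 2.66 under bleomycin, which overlapped through DMSO replicate 1 (difference 0.37, exact permutation p = 0.0857, adjusted p = 0.133). Without that library the difference was 0.49 (adjusted p = 0.0571). Over all 3 shRNAs, 12 libraries against 12, the difference was 0.50 (permutation within shRNAs, p = 1.75e-05, adjusted p = 0.00014), and the groups did not overlap in 2 of 3 shRNAs. With libraries of a number kept together, 4 sets against 4 gave p = 0.0286, the smallest such a test can give (exact permutation, adjusted p = 0.133). Log2 COPZ1/COPZ2 differed by 0.15 over all 3 shRNAs (permutation p = 0.228, adjusted p = 0.261). Bleomycin COPB2 shRNA 2 replicate 2 stood at 0.65 where its 3 partners were at 1.65 to 1.75, and without it the difference was 0.23 (adjusted p = 0.0203, and 0.131 with libraries of a number kept together).

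The second comparison was bleomycin against DMSO in IMR90 cells with the control shRNA. None of the 9 subunits passed the edgeR test, against 31.2% of the 14783 genes tested, and none reached an unadjusted p under 0.05, as 40.1% of genes did. The Wald test of DESeq2 called none of them either. The median log2 fold change was 0.13 over the subunits and -0.014 over all genes.

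ARCN1 had 309, 285, 308 and 319 CPM under DMSO and 368, 397, 438 and 352 under bleomycin, a log2 difference of 0.32 (SE 0.16, edgeR adjusted p = 0.138), and it was the one subunit whose groups did not overlap, as was the case for 14.1% of genes in the higher direction. COPG2 had 66.9, 60.1, 62.4 and 60.7 and 50.3, 63.8, 54.8 and 52.4, a difference of -0.21 (SE 0.11, adjusted p = 0.150). COPZ2 had 100.3, 52.1, 65.0 and 53.0 and 63.7, 105, 59.6 and 53.4, a difference of 0.033 (SE 0.34, adjusted p = 0.957). Bleomycin libraries of COPG2 sat mostly below the DMSO libraries, with replicate 2 among them, and those of COPZ2 spread over the same range. Without DMSO control replicate 1, COPE was at 0.47, COPZ1 at 0.37, COPG1 at 0.33 and COPA at 0.22, where they had been at 0.21, 0.13, 0.15 and 0.10, and no subunit passed (lowest adjusted p = 0.116).

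In libraries with a COPB2 shRNA, COPG2 fell with bleomycin, by 0.30 on the log2 scale with shRNA 1 (SE 0.11, edgeR adjusted p = 0.0313) and by 0.43 with shRNA 2 (SE 0.11, adjusted p = 0.00282), where 17.8% and 18.3% of genes were called lower. ARCN1 rose with shRNA 1 (0.47, SE 0.16, adjusted p = 0.0246) but stood at 0.030 with shRNA 2 (adjusted p = 0.900). COPE rose with shRNA 2 (0.72, SE 0.26, adjusted p = 0.0349), a group that holds the library at 617 CPM, replicate 2. Without that library COPE was at 0.37 (adjusted p = 0.236), so the call rests on it, while COPG2 was at -0.41 (0.00817) and ARCN1 at 0.20 (0.236). The higher calls compare with 17.4% of genes for shRNA 1 and 21.7% for shRNA 2.

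After the correction for GC content and length, 4 subunits were called higher with bleomycin and the control shRNA, where 24.9% of all genes were: ARCN1 (0.35, SE 0.12), COPB2 (0.31, SE 0.12), COPE (0.25, SE 0.069) and COPG1 (0.20, SE 0.080), with edgeR adjusted p-values from 0.00516 to 0.0426. These are the same 4 genes that the corrected fit called higher in OIS. COPG2 stood at -0.25 (adjusted p = 0.0974) and COPZ2 at -0.011 (adjusted p = 0.968).

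Whether the senescence effect differed between the models was tested in a fit of all 42 libraries. COPG2 differed, with an ER:RAS effect lower than the IMR90 effect by -0.69 on the log2 scale (SE 0.20, edgeR adjusted p = 0.0100), as did 20.3% of 15299 genes. COPZ2, at -1.20 (SE 0.56), did not pass (adjusted p = 0.135), but without ER:RAS 4OHT control replicate 1 it was at -1.82 (0.0210). COPG2 was then at -0.83 (0.00326), and without IMR90 DMSO control replicate 1 at -0.73 (0.0102). The other 7 ranged from -0.21 (COPB1) to 0.73 (COPE) and did not pass. Cell line and inducer differ together between the models and cannot be told apart.

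The 26 partners of the coatomer in the same transport step, a list of GTPases, their regulators, cargo receptors, tethers and SNAREs, gave 6 higher and 0 lower calls in OIS, where 15.5% of all genes were called higher and 20.2% lower, with a median log2 fold change of 0.32. RINT1, of the ER-side tether, rose by 1.32 (SE 0.37, edgeR adjusted p = 0.0108), and KDELR3, a receptor that returns escaped ER proteins, rose by 1.09 (SE 0.14, adjusted p = 2.26e-05). TMED9, a p24 cargo receptor, rose by 0.99 (SE 0.31, adjusted p = 0.0197) and ARF1 by 0.67 (SE 0.24, adjusted p = 0.0367). After bleomycin 4 partners rose and 2 fell, with a median of 0.25, where 15.4% of genes were called higher and 15.8% lower. The p24 receptor TMED4 (0.56, SE 0.12, adjusted p = 0.000933) and ARF4 (0.49, SE 0.16, adjusted p = 0.0222) rose, and the ER-side proteins USE1 (-0.82, SE 0.27, adjusted p = 0.0217) and NBAS (-0.47, SE 0.13, adjusted p = 0.00824) fell.

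The third comparison set both COPB2 shRNAs, singly and together, against their control within the 4 cell states. COPB2 encodes the beta prime subunit of the outer coat (chr3:139072788-139108578, minus strand). In ER:RAS DMSO it had 330.4, 267 and 424 CPM with the control shRNA, 44.5, 33.9 and 58.6 with shRNA 1 and 45.0, 44.4 and 66.2 with shRNA 2. In ER:RAS 4OHT it had 360.1, 458 and 620.4, 99.6, 94.3 and 107 and 117, 99.5 and 122. All knockdown libraries lay below all control libraries of their state.

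In IMR90 DMSO COPB2 had 313, 342, 432 and 358 CPM with the control shRNA, 43.5, 44.2, 67.6 and 45.0 with shRNA 1 and 62.5, 50.5, 78.2 and 55.2 with shRNA 2. In IMR90 bleomycin it had 382, 394, 548 and 481, 82.2, 97.5, 115 and 87.5 and 82.1, 83.1, 120.1 and 94.0. Again no groups overlapped, and the ranges of both shRNAs lay close to each other within a state. Complete separation in the lower direction was seen for 0.399%, 1.38%, 0.135% and 0.0474% of genes in the 4 states in the order given.

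Averaged over both shRNAs, COPB2 fell, with a log2 fold change of -2.84 in ER:RAS DMSO (SE 0.24), -2.19 in ER:RAS 4OHT (SE 0.24), -2.69 in IMR90 DMSO (SE 0.14) and -2.24 in IMR90 bleomycin (SE 0.14). The adjusted p-values in edgeR were 9.07e-05, 0.000899, 5.49e-11 and 2.28e-09. COPB2 was the 1 subunit of 9 called in each state, and the share of all genes called was 0.014%, 0.266%, 0.00676% and 0.0474%. More COPB2 remained in senescent cells: with 4OHT it rose by 1.05 in shRNA 1 libraries (SE 0.30, adjusted p = 0.0110) and by 1.04 in shRNA 2 libraries (SE 0.30, adjusted p = 0.0114), where 15.4% and 14.9% of genes were called higher. With bleomycin the rises were 0.90 (SE 0.17, adjusted p = 0.00029) and 0.58 (SE 0.17, adjusted p = 0.00919). Depletion of COPB2 was not shown to differ between senescent and DMSO cells, with a difference of 0.65 in ER:RAS (SE 0.36, adjusted p = 1.00) and 0.46 in IMR90 (SE 0.21, unadjusted p = 0.0392, adjusted p = 1.00). COPB2 also shares 6378 bases of exon with MRPS22 on the opposite strand, which stood at 17.5 to 57.1 CPM.

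COPB1 encodes beta-COP, the inner-layer partner of delta (chr11:14464986-14521573, minus strand). Its level was higher with both COPB2 shRNAs in each state, by estimates of 0.34 to 0.71 on the log2 scale, but no estimate passed the edgeR test without a correction or a block. In ER:RAS DMSO it had 235, 129 and 339 CPM with the control shRNA, 267, 195 and 479 with shRNA 1 and 149.6, 251 and 488 with shRNA 2. In ER:RAS 4OHT it had 126, 222 and 316, 262, 309 and 505 and 279, 327 and 512. Replicate 3 was the highest library in each of these 6 groups, and the ranges of control and knockdown libraries overlapped.

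In IMR90 DMSO COPB1 had 183, 279, 332 and 269 CPM with the control shRNA, 270.3, 341, 473 and 343 with shRNA 1 and 312, 384, 501 and 396 with shRNA 2. In IMR90 bleomycin it had 244, 206, 381 and 333, 395, 363, 554 and 449 and 311, 349, 537 and 491. Here too replicate 3 was the highest library of each group, and in every comparison the lowest knockdown library lay under the highest control library, so that the groups overlapped.

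Averaged over both shRNAs, the log2 fold change of COPB1 was 0.34 in ER:RAS DMSO (95% interval -0.67 to 1.36), 0.71 in ER:RAS 4OHT (-0.33 to 1.74), 0.51 in IMR90 DMSO (0.098 to 0.93) and 0.58 in IMR90 bleomycin (0.16 to 0.99). Unadjusted p-values in edgeR were 0.472, 0.156, 0.0165 and 0.00821, and all 4 adjusted p-values were 1.00. The ER:RAS 4OHT estimate was 0.43 without control replicate 1 and 1.09 without control replicate 3, and that of IMR90 DMSO was 0.36 without control replicate 1. Averaged also over treatments, COPB1 stood at 0.53 in ER:RAS cells (SE 0.33, adjusted p = 1.00) and at 0.54 in IMR90 cells (SE 0.14, unadjusted p = 0.000786, adjusted p = 0.387), where it ranked 30 of 14783 genes by p. COPB2 was again the 1 subunit called in these averages, in which 0.182% and 0.0541% of genes were called.

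Libraries of a state that share a replicate number were also set side by side. COPB1 was higher in the knockdown library than in the control library of the same state and number in 27 of 28 cases, with a median log2 difference of 0.56, and 0.261% of 15299 genes reached at least 27 of 28 in the higher direction. The exception was ER:RAS DMSO COPB2 shRNA 2 replicate 1, at -0.65, and the highest difference, 1.15, was that of ER:RAS 4OHT COPB2 shRNA 2 replicate 1, whose control is the library with the lowest COPB1. Both shRNAs share the control library of their state and number, so the 28 differences are not independent.

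**Figure D4:**
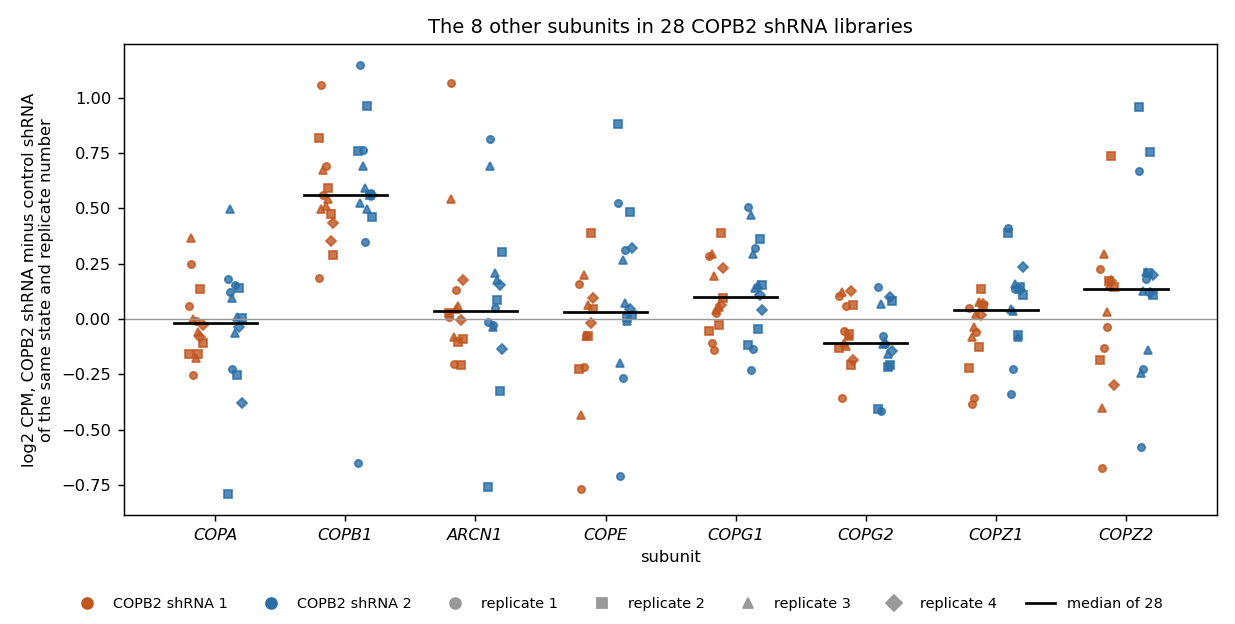
Log2 difference between each of the 28 knockdown libraries and the control library of the same cell state and replicate number, for the 8 subunits that were not targeted, with a point per library and a black bar at the median. COPB1 lies above 0 in 27 of 28 libraries with a median of 0.56, and the other medians lie between -0.11 and 0.14.

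Whether same-numbered libraries belong together decides how this is tested. In the IMR90 bleomycin state they deviated together from their group means, with correlations of 0.425 to 0.782 between control and COPB2 shRNA libraries, so there the replicate number pairs the samples. With the number as 1 block over both IMR90 treatments, COPB1 rose by 0.58 in that state (edgeR adjusted p = 0.0482). With that block 14 genes were called in place of 7, and 0.0812% of genes were called higher. Between the treatments, correlations with the control shRNA ran from -0.495 to 0.584, so the number did not pair samples there. With a separate block for each treatment, an alternative chosen after seeing the data, COPB1 rose by 0.59 (edgeR adjusted p = 0.000269, 0.846% of genes called higher). Over the 9 alternatives without a left-out library, the estimate ran from 0.53 to 0.59 and the adjusted p from 0.000269 to 1.00.

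After the correction for GC content and length, COPB1 was called higher in 3 of 4 states. The log2 fold change was 0.64 in ER:RAS 4OHT (edgeR adjusted p = 0.00286), 0.44 in IMR90 DMSO (0.0131) and 0.53 in IMR90 bleomycin (0.00118), where 1.17%, 0.0135% and 0.101% of genes were called higher, and 0.48 in ER:RAS DMSO (0.347), where none was. In the averages over treatments it was 0.56 in ER:RAS (adjusted p = 0.000733, 0.93% of genes called higher) and 0.49 in IMR90 (1.44e-05, 0.203%). Over the alternatives, the adjusted p of COPB1 ran from 0.000167 to 1.00 in ER:RAS 4OHT, from 0.00345 to 1.00 in IMR90 DMSO, from 4.66e-05 to 1.00 over the ER:RAS treatments and from 1.03e-05 to 1.00 over the IMR90 treatments. The Wald test of DESeq2 called COPB2 and no other subunit in each state. A readthrough gene on the same strand (ENSG00000256206) shares 407 bases of exon with COPB1, and its part in the COPB1 level was not tested.

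The effect on COPB1 was not shown to differ between senescent and DMSO cells, with a difference of 0.36 in ER:RAS (interval -1.06 to 1.79) and 0.062 in IMR90 (-0.51 to 0.64). None of the 9 subunits passed that test in either line. By edgeR, 2 genes (0.014%) were called in ER:RAS and 0 in IMR90, where 154 had an unadjusted p under 0.05.

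The other 7 subunits lay closer to their controls. In the comparison by replicate number their medians lay between -0.11 (COPG2, higher in 9 of 28 libraries) and 0.14 (COPZ2, higher in 18 of 28), with COPG1 at 0.10 (20 of 28), COPZ1 at 0.041 (17 of 28), ARCN1 at 0.037 (16 of 28), COPE at 0.030 (16 of 28) and COPA at -0.018 (12 of 28). None of them passed the edgeR test in any of the 8 contrasts of a single COPB2 shRNA in a cell state. The share of genes called, for shRNA 1 and shRNA 2, was 0.00699% and 0.00699% in ER:RAS DMSO, 0.14% and 0.224% in ER:RAS 4OHT, 0.00676% and 0.00676% in IMR90 DMSO and 0.00676% and 0.0744% in IMR90 bleomycin. In IMR90 cells, averaged over both shRNAs, the intervals of all 7 lay between -0.58 and 0.81, both bounds from COPZ2 (-0.58 to 0.66 in DMSO, -0.43 to 0.81 under bleomycin). In ER:RAS cells they were wider, as in COPE, at -0.73 to 0.72 for COPE in DMSO and -0.84 to 0.60 under 4OHT.

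Among these 7, COPG2 had a log2 difference of -0.25 in ER:RAS 4OHT (SE 0.15, edgeR adjusted p = 1.00), or -0.12 without control replicate 1, and the highest knockdown library, at 33.04 CPM, overlapped the control libraries, whose lowest was 30.9. In IMR90 bleomycin shRNA 2 it had 46.5, 48.1, 49.2 and 47.4 CPM, below all 4 control libraries (-0.20, SE 0.11, adjusted p = 0.741), as was the case for 0.758% of genes in that direction. Mean log2 COPG1/COPG2 was above its control in all 8 comparisons, by 0.012 and 0.066 in IMR90 DMSO and by up to 0.39 in ER:RAS 4OHT, as a description with no test. COPZ1/COPZ2 differed between knockdown and control by -0.21 to 0.060 over the 8 comparisons.

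**Figure D5:**
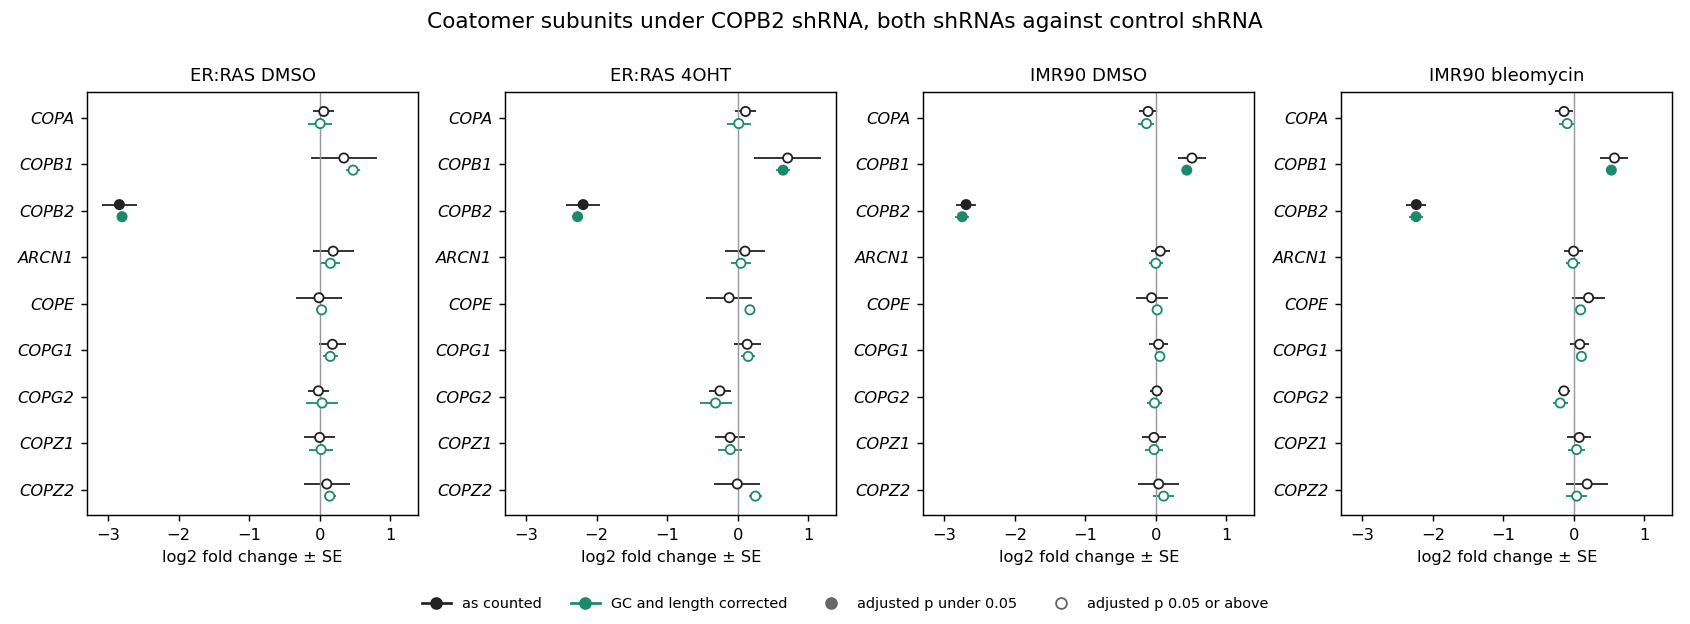
Log2 fold change of each subunit with both COPB2 shRNAs against the control shRNA in the 4 cell states, as edgeR estimates with SE bars. Estimates are shown as counted and after correction for GC content and length. As counted, COPB2 lies between -2.84 and -2.19 and COPB1 between 0.34 and 0.71. The 95% intervals of the other 7 subunits as counted, which are not drawn, include 0.

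Of the 26 partners, 1 was called higher in ER:RAS cells averaged over both shRNAs and treatments (0.161% of genes were) and 0 in IMR90 cells, with median log2 fold changes of 0.048 and 0.085. ARF4, a GTPase related to ARF1, rose by 0.55 in ER:RAS (SE 0.098, edgeR adjusted p = 0.0377), by 0.93 within the 4OHT state (SE 0.14, adjusted p = 0.00636, 0.238% of genes called higher), and stood at 0.27 in IMR90 (SE 0.098, unadjusted p = 0.0103, adjusted p = 1.00). In IMR90 401 genes had an unadjusted p under 0.05 in this average.

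The promoters of COPB1 and COPB2 are shown because COPB2 was the target and COPB1 had the highest estimates with its shRNAs. The 250 bases before the start were searched on both strands for 5 motifs of the ER and integrated stress responses: UPRE (TGACGTGG), ERSE, ERSE-II, CRE (TGACGTCA) and CARE (TGATGCAA). Of the 9 subunits, COPB1 and COPB2 held a UPRE match, in capitals below and on the reverse strand, and the other 7 held none of the 5.
COPB1 promoter: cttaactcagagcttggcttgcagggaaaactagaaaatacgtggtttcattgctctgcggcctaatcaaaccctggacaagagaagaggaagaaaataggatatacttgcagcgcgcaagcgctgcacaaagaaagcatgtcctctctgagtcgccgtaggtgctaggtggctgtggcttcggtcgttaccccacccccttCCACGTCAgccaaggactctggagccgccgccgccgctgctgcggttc
COPB2 promoter: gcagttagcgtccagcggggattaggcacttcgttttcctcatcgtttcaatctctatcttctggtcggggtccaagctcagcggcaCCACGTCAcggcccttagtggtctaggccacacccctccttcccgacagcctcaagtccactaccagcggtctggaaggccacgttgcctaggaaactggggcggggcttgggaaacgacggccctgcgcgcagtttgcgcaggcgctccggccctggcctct
These are RefSeq sequences on GRCh38.p14, at chr11:14499812-14500061 for COPB1, with the match 48 bases before the start, and at chr3:139389681-139389930 for COPB2, with the match 163 bases before it, both on the minus strand. Among 35093 promoters of the same length, 0.613% held UPRE, 0.0741% ERSE, 0.0513% ERSE-II, 1.65% CRE and 0.772% CARE. UPRE read on the reverse strand begins with the letters CCACG in which ERSE and ERSE-II end. A match describes the letters and no site of binding.

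Genes whose group means over the 12 groups ran most like those of a subunit were found by Pearson's r of log2 CPM among 9393 genes, as a description in which the points share libraries and treatments. For COPB1 they were SEC23IP (r = 0.955), LZTFL1 (0.925) and DCTN4 (0.909). For COPG2 they were CSF1 (0.995), ZNF512B (0.994) and AJUBA (0.994), and for COPZ2 AP5S1 (0.986), CRABP2 (0.985) and C11orf1 (0.981).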

How the data were processed

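Libraries were directional poly(A) libraries. The authors deposited 1 table of raw read counts per gene symbol for all 42 libraries. Their processing notes name the hg38 build, DRAGEN, STAR 2.7.8a and DESeq2 1.32.0, while the methods of the study name an hg19 alignment, and which made the table is not given in the sources used here. Samples were grouped by their labels.

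Genes low in counts were removed with filterByExpr, and library sizes were scaled by TMM. The quasi-likelihood test of edgeR 4.0.16 (R 4.3.3, limma 3.58.1) was fitted per cell line, with Benjamini-Hochberg adjustment over all genes and a threshold of 0.05, and over all 42 libraries for the difference between models. The fits were tested on simulated data. Paralogue ratios were tested by permutation (scipy 1.17.1). Alternatives were DESeq2 1.42.0 size factors and Wald test, no filter, a replicate block, a GC and length correction, fewer or more libraries in the fit and leaving out each library. The block within each treatment, the block with GC correction, the GC correction of the ratios, the canonical transcript as gene length, the permutation of libraries of a number as sets, and the COPB2 shRNA senescence contrasts and the difference between models without libraries that stood apart were added after seeing the data.

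All 9 subunits were named. Partners were named where called in a senescence contrast with the control shRNA or a knockdown contrast of a line, at most the 4 with the largest changes, as were the 3 genes most like COPB1, COPG2 and COPZ2 among those with a mean of 10 CPM or more, HRAS and ESR1, and genes that overlap a subunit. The members and lists were chosen with earlier results of these data known. Gene models were GENCODE on GRCh37, matched by symbol for 25055 of 28266 symbols. Replicate numbers come from the labels. Every correlation of same-numbered libraries passed 0.1 between control and both COPB2 shRNAs in IMR90 bleomycin (0.425 to 0.782), but not in IMR90 DMSO with shRNA 1 (lowest 0.0983) or between control and COPB2 shRNAs in ER:RAS (lowest -0.573). Over libraries of 13148194 to 23597310 counts, the lowest count of a subunit was 353 (COPZ2).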

Additional observations from a re-analysis of the deposited data

Results flagged for a closer look

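In groups of 4 libraries, 66 sets of values were tested for a library far from its partners, and 12 held one. Chance gives about 1 in 20 for a single set. The sets share libraries over subunits and ratios, so 1 library can be flagged several times and the sets are not independent.

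IMR90 DMSO control replicate 1 stood apart in 4 subunits. It had 599 CPM of COPA where its partners had 454 to 460.4, 331 of COPE against 175 to 199, 424 of COPG1 against 272 to 294, and 264 of COPZ1 against 146 to 162. In IMR90 DMSO COPB2 shRNA 2, replicate 1 had 304 CPM of ARCN1, below the 352 to 356 of its partners, and 386 of COPG1, above their 303 to 317. In IMR90 DMSO COPB2 shRNA 1, replicate 3 had 67.6 CPM of COPB2 where the others had 43.5 to 45.0.

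Under bleomycin, COPB2 shRNA 1 replicate 2 had 553 CPM of COPA (partners 500.0 to 509), and replicate 3 had 456 of ARCN1 (398 to 405). Control replicate 2 had 436 CPM of COPG1 (325 to 341). COPB2 shRNA 2 replicate 2 had 204 CPM of COPZ2 (54.1 to 72.3) and a log2 COPZ1/COPZ2 of 0.65 (1.65 to 1.75).

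The senescence effect on COPG2 differed between the models, lower in ER:RAS than in IMR90 by -0.69 on the log2 scale, by an interaction term in edgeR over all 42 libraries (adjusted p = 0.0100).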

How the results depend on the processing

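Under alternatives other than leaving out a library, 152 of 238 recomputed summaries and comparisons and 142 of 159 values of single subunits kept their direction and side of the threshold (counts within 1.5 times), and none reversed. Subunit estimates that were not called and no larger than their SE were left out beforehand, and counts and levels cannot reverse. The absence of reversals therefore does not cover the estimates most likely to change sign. In OIS, the 5098 of 14297 genes called became 4901 with size factors and 7274 with the block. They became 7962 with GC correction and 9243 with block and GC. In the compared libraries alone 2911 of 13507 genes were called, and with all 42 libraries 6415 of 15299. The 2 subunits called became 1 with size factors, 4 with the block, 6 with GC, 7 with both, 0 with the compared libraries and 4 with all 42. COPG2 stood at -0.95 with the compared libraries, COPZ2 at -1.12 with size factors and -1.24 with the compared libraries. Size factors moved the median of all genes from -0.079 to 0.045 and the share of called genes that were higher from 43.4% to 49.3%. After bleomycin, the 0 subunits called became 1, 4 and 5 with block, GC and both. The 4614 of 14783 genes called became 6050, 6905 and 7813 in the same order.

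Same-numbered libraries paired by the correlation rule between control and both COPB2 shRNAs in IMR90 bleomycin, between control and shRNA 2 in IMR90 DMSO, and among COPB2 shRNA groups of each state and of ER:RAS, but not between treatments with the control shRNA. With the block, partners called in OIS were 12 higher and 1 lower, where 7274 of 14297 genes were called, 3191 of them higher. With the replicate block, 105 genes were called with COPB2 shRNAs in ER:RAS 4OHT (38 without), 67 over ER:RAS treatments (26), 2 in IMR90 DMSO (1), 14 in IMR90 bleomycin (7) and 24 over IMR90 treatments (8). The block made 2 subunits called in IMR90 bleomycin and over IMR90 treatments, with COPB1 at 0.58 (edgeR adjusted p = 0.0482) and 0.55 (0.00305), and ended no call on a subunit in the contrasts named here. In the same order, blocks within treatments called 212, 101, 15, 181 and 219 genes, and 2 subunits in each IMR90 contrast, with COPB1 at 0.52, 0.59 and 0.55.

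GC correction called 232, 177, 3, 18 and 33 genes and 2 subunits in each of these, with COPB1 at 0.64, 0.56, 0.44, 0.53 and 0.49. Block and GC together called 763, 520, 5, 95 and 80 genes and 2 subunits, with COPB1 at 0.64, 0.56, 0.44, 0.53 and 0.48. In ER:RAS DMSO, 2 genes became 9 and 1 subunit became 2 with both, 4 genes with the Wald test and 1 with the compared or all 42 libraries. The Wald test called 93, 64, 2, 15 and 27 genes, the compared libraries 11 in ER:RAS 4OHT, 2 in IMR90 DMSO and 1 in IMR90 bleomycin, and all 42 libraries 103 and 87 in ER:RAS. With GC correction, log2 COPG1/COPG2 in IMR90 controls differed by 0.46 (exact permutation, adjusted p = 0.0457) and COPZ1/COPZ2 over 3 shRNAs by 0.23 (adjusted p = 0.0457). With libraries of a number kept together over the shRNAs, COPG1/COPG2 differed by 1.22 in ER:RAS and 0.50 in IMR90 and COPZ1/COPZ2 by 1.65 in ER:RAS (adjusted p = 0.133 each). The cause of these shifts was not tested.

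Leaving out 1 library gave 1 to 3 subunits called in OIS, where 4034 to 5146 genes were called. It gave 1 subunit without DMSO control replicate 2 or 4OHT control replicate 2. COPE was at 0.42 to 1.21, ARCN1 at 0.27 to 0.92 and COPZ2 at -1.81 to -0.91. Genes called with COPB2 shRNAs were 1 to 3 in ER:RAS DMSO (1 without control replicate 1 or 2), 17 to 41 in ER:RAS 4OHT (17 without control replicate 2, 21 without control replicate 3, 23 and 25 without shRNA 1 or shRNA 2 replicate 3) and 11 to 32 over ER:RAS treatments (11 without DMSO control replicate 1, 13 without 4OHT control replicate 2, 15 without replicate 3 of either control). They were 1 to 7 in IMR90 bleomycin (1 without control replicate 1 or 3, 2 without control replicate 2, 4 without control replicate 4, shRNA 1 replicate 1, 2 or 4 or shRNA 2 replicate 1 or 3) and 3 to 11 over IMR90 treatments (3 without bleomycin control replicate 1 or 3 or DMSO control replicate 2, 3 or 4). COPZ1/COPZ2 in IMR90 over 3 shRNAs differed by 0.11 to 0.23. With bleomycin and shRNA 2, COPZ2 was at 0.46, and at -0.14 without shRNA 2 replicate 2.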
